A study of Mus musculus with 19 samples.

Results

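The genes described here are 31 mouse interferon-stimulated genes, those that type I interferon switches on in most cell types. They were chosen by name, with earlier results of these data known. All 31 were found by Ensembl gene ID among the 20655 genes of the deposited count table. The study measured RNA of the left hippocampus from mice aged 4 months, 1 library per animal, and asked what a CLU knock-in does in a mouse model of Alzheimer's disease. CLU (clusterin) is a secreted chaperone made mainly by astrocytes in the brain. There were 4 groups: 4 female and 5 male mice of the genotype 5xFADHEMI:CLUh2kbKIHO (the design text writes CLU-2kb-KI, here "knock-in"), and 5 female and 5 male mice of the genotype 5xFADHEMI (here "5xFAD"). All 19 animals therefore carried the 5xFAD transgenes, which are driven by the neuronal Thy1 promoter, and none of the libraries used here came from a mouse without them. Libraries are named by group and by the number in their titles, which lack a number 3 among the knock-in females.

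Type I interferons bind the receptor made of Ifnar1 and Ifnar2, whose kinases Jak1 and Tyk2 phosphorylate Stat2. Stat2 joins Irf9 in a complex that enters the nucleus and binds the interferon-stimulated response element, a short DNA motif in the promoters of the response genes. Irf7, itself a response gene, drives further interferon production and so amplifies the response. In brains with amyloid plaques, interferon-stimulated transcripts are known from a subset of microglia and from other glia, next to the microglial state that gathers at plaques.

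Library totals were 17278276 to 25200966 counts, and the counts of any 2 animals within a group varied beyond sampling noise. Clu, the edited gene, stood at 938 to 1365 CPM (counts relative to the library total, scaled by the trimmed mean of M values) in knock-in females and 809 to 1121 in 5xFAD females, and at 732 to 1109 in knock-in males and 865 to 1160 in 5xFAD males. The log2 change of knock-in over 5xFAD was 0.13 over both sexes (SE 0.10, adjusted p = 0.664, edgeR's quasi-likelihood test), and the labels do not say what the knock-in does to this level, so it gave no check of the genotype labels. Xist and Ddx3y matched the labelled sex in all 19 libraries. Summed markers of neurons (4870 to 7234 CPM), astrocytes (4390 to 6714 CPM) and oligodendrocytes were high in every library. Those of choroid plexus, a tissue beside the hippocampus, ran from 33.8 to 11647 CPM. T, NK and B lymphocyte markers summed to 0.868 to 4.67 CPM and those of neutrophils and monocytes to 0.205 to 2.09 CPM. Titles carry a B for every knock-in and a C for every 5xFAD library. The last number in the titles and the number in the library names also lie in separate ranges by genotype. Genotype and any batch that follows these letters or numbers therefore cannot be told apart. Nothing in the labels says whether animals shared a litter.

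The element bound by the complex of Stat2 and Irf9 was sought in RefSeq promoter windows of build GRCm38.p6 (250 bases before to 50 after each start), as its core, 2 GAAA words with 2 free bases between them, on both strands. Windows were found for 24 of the 31 genes (none for Rtp4, Mx1, Parp14, Ifi204, Ifi27l2a, Usp18 and Zbp1), and 16 of these 24 held the core, 8 of them 2 or more times. By single windows, the core was in 18 of the 30 windows of these 24 genes. It was in 3.44% of all 32851 RefSeq windows and in 3.1% of those of the genes tested. The windows of Irf9, Irf7, Ifit2, Oasl2, Ifi44, Xaf1, Sp100 and Slfn2 held no copy of these letters. The following upstream stretches belong to the 4 genes with a match and the highest correlation with Irf7 between animals (described further on). Capitals mark the matches, and where 2 matches overlap they form 1 run.
Ifit3, chr19:34583348-34583441 (+): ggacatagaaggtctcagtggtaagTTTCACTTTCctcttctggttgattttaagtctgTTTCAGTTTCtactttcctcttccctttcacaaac
Bst2, chr8:71537562-71537627 (-): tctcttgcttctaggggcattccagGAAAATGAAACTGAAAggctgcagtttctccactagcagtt
Oas1a, chr5:120907526-120907570 (-): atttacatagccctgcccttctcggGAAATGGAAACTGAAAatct
Ifit3b, chr19:34607744-34607837 (+): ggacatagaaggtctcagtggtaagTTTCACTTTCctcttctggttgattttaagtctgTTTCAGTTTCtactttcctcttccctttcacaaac
Each stretch holds 2 matches. Those of Bst2 and Oas1a lie on the gene's strand and overlap by their inner GAAA, and those of Ifit3 and Ifit3b lie on the opposite strand, read here as TTTC. Ifit3 and Ifit3b are neighbouring copies on chromosome 19, and the stretches printed for them are the same letters. Their windows agreed at 258 of 260 aligned bases. The builds differ (the submitters' processing notes name mm39), and nothing in these data measured binding at the sites.

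Per kilobase of annotated exon, the most abundant of the 31 transcripts was Ifitm3, a membrane protein that blocks viral fusion, at a mean of 20.2 CPM per kilobase. Bst2 (tetherin, which holds budding virions at the cell surface) followed at 13.9 and Ifit3 at 10.8. Stat2 stood at 5.17, Ifit3b at 5.11 and Ifi27l2a at 4.80 CPM per kilobase, and Isg15, the ubiquitin-like modifier, at 3.99. The least abundant were Mx1 (0.242), Zbp1 (0.279) and Ifi44 (0.284). Zbp1 and Mx1 had as few as 2 counts in 5xFAD male 6. All 31 passed the filter on low counts. Values of Oas1a, Ifit3 and Ifit3b are uncertain, since 68.8%, 61.8% and 55.2% of their 31-base words also occur in another gene (for Oas1a mostly Oas1g). For Ifi204 the share was 34.0%, for Slfn8 26.8% and for Ifitm3 20.5%.

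The response genes differed more between animals of a group than most genes did. Their median SD within groups was 0.53 on the log2 CPM scale, against 0.27 for all 18204 genes tested, at a lower median level (2.23 against 3.90 log2 CPM). Stat2 varied least (0.16), then Ifit2, Irf9 and Ifitm3 (0.28 each). Zbp1, a sensor of left-handed nucleic acids, varied most (0.89), followed by Cxcl10 (0.80).

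**Figure D1:**
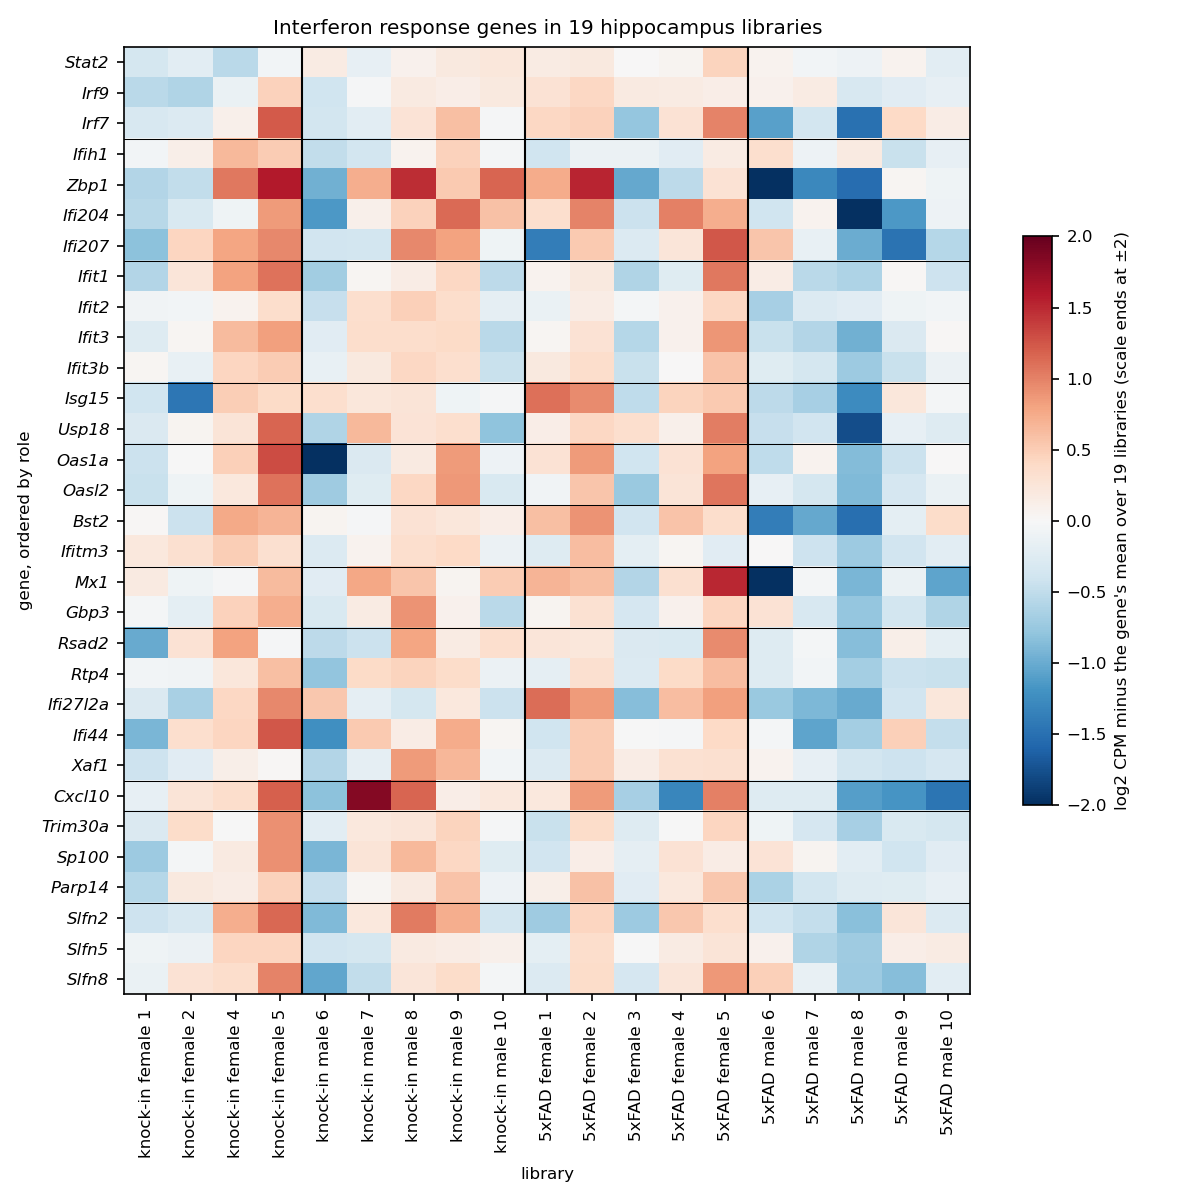
Level of the 31 interferon response genes in each of 19 hippocampus libraries, as log2 CPM minus the gene's own mean over the libraries; black lines separate the groups and the roles. Knock-in female 5 and 5xFAD female 5 are red in most rows, 5xFAD male 8 and knock-in male 6 are blue in most rows, and the Stat2 row is pale in every library.

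The same few libraries were high or low for many of the genes. Knock-in female 5 was the highest of the 19 libraries for 12 genes and among the top 5 for 26 of the 31, and 5xFAD female 5 was the highest for 7 and among the top 5 for 23. 5xFAD male 8 was the lowest for 12 genes and among the bottom 5 for 28, and knock-in male 6 the lowest for 9 and among the bottom 5 for 22. The summed level of the 31 genes was 180 to 327 CPM in knock-in females, 173 to 277 in knock-in males, 184 to 310 in 5xFAD females and 143 to 194 in 5xFAD males. The 5xFAD males thus spanned the narrowest range and lay low, and each other group held both low and high animals.

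In females, 1 of the 31 genes differed between genotypes beyond the spread between animals. Stat2, the signal transducer named above, fell in the knock-in. None of the 31 rose, the other 2 transcription factors gave changes below 0 (Irf9 -0.37, Irf7 -0.04), and the sensors and the effectors gave changes on both sides of 0. Stat2 stood at 23.7, 26.3, 20.9 and 29.3 CPM in knock-in females 1, 2, 4 and 5. It stood at 34, 34.8, 30.6, 31.4 and 41.1 CPM in 5xFAD females 1 to 5. All 4 knock-in females lay below all 5 5xFAD females, as 9.03% of all genes tested did. No gene of the 31 had all knock-in females above (3.86% of all genes). The log2 change was -0.46 (SE 0.12, adjusted p = 0.0265 over all genes, edgeR's quasi-likelihood test). The share of all genes that fell in this comparison was 4.43%, so 1 of 31 is near the background. A further 1.13% of all genes rose.

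The Stat2 difference in females went together with a difference in nuclear noncoding RNA. The 8 long noncoding RNAs taken as a nuclear marker (Meg3, Neat1, Kcnq1ot1 and others) summed to 1212 to 2419 CPM in knock-in females and to 5332 to 6943 in 5xFAD females, and 7 of the 8 fell. With the mean log2 level of these RNAs as a covariate, the Stat2 change was -0.16 (adjusted p = 1). In that fit 0 of all genes passed, against 1013 without the covariate. The level did not overlap between the female groups, so the fit cannot tell genotype and this level apart. Leaving out knock-in female 1, 2 or 4, or 5xFAD female 1, 4 or 5, each ended the call (adjusted p = 0.0645, 0.0686, 0.141, 0.0510, 0.0512 and 0.0793). With the mean log2 level of 10 microglia markers as a covariate, a fit added after the data were seen, the change was -0.48 (adjusted p = 0.174). Some erythroid and astrocyte markers also rose in this female comparison (edgeR). They were Hba-a1 (1.01, adjusted p = 0.0111), Hbb-bs (0.84, adjusted p = 0.0156), Hbb-bt (1.09, adjusted p = 0.0230), Gfap (0.59, adjusted p = 0.0265) and Aqp4 (0.54, adjusted p = 0.0403). The other markers of these lists did not pass, and their part was not tested.

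Irf9, the DNA-binding partner of Stat2, stood at 11.5, 11.1, 15.3 and 23.2 CPM in knock-in females 1, 2, 4 and 5 and at 20.5, 22.4, 19.1, 18.9 and 18.3 CPM in 5xFAD females 1 to 5. Knock-in female 5 was the highest of all 19 libraries and the other 3 knock-in females lay below every 5xFAD female (log2 change -0.37, SE 0.18, adjusted p = 0.227). Without knock-in female 5 the change was -0.65 (adjusted p = 0.0287). Irf7 stood at 3.67, 3.77, 4.89 and 10.7 CPM in knock-in females and at 6.08, 6.30, 2.67, 5.60 and 9.09 CPM in 5xFAD females, in the same order of animals. Number 5 was the highest animal in both groups, and the group means were close, 5.76 ± 3.35 (SD, n = 4) and 5.95 ± 2.28 CPM (SD, n = 5). Ifih1 (MDA5, a sensor of long double-stranded RNA) stood at 6.26, 7.00, 10.1 and 9.16 CPM in knock-in females and at 4.93, 5.96, 5.98, 5.55 and 7.25 CPM in 5xFAD females. The groups overlapped, and the change of 0.45 (SE 0.21) did not pass (adjusted p = 0.196). Isg15 stood at 2.09, 1.01, 3.85 and 3.60 CPM in knock-in females and at 5.91, 5.29, 1.94, 3.73 and 3.93 CPM in 5xFAD females. It was lowest in knock-in female 2 and highest in 5xFAD females 1 and 2 (log2 change -0.65, SE 0.35, adjusted p = 0.287). Over the 31 genes, 16 changes in females were above 0 and 15 below, with a median of 0.05 on the log2 scale beside 0.01 for all genes, of which 51.1% were above 0. An unadjusted p under 0.05 was found for 2 of the 31 (6.45%) and for 22.1% of all genes.

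In males, knock-in animals had the higher mean for 30 of the 31 genes, but no gene passed the test. The median log2 change was 0.46, beside 0.01 for all genes, of which 51.9% were above 0. In the edgeR fit 0 of the 31 passed, as did 0 of all 18204 genes (0%), and limma-voom and DESeq2 also called 0 of the 31. An unadjusted p under 0.05 was found for 9 of the 31, or 29%, and for 6.52% of all genes. The 31 genes tended to be high or low in the same libraries, so such counts are not 31 separate observations. The same holds for the counts in the other comparisons. No gene of the 31 separated the male groups, against 0.527% of all genes with every knock-in male above every 5xFAD male and 0.494% with every one below.

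The largest differences in males were those of Cxcl10, Zbp1 and Mx1. Cxcl10, a chemokine that draws T cells, stood at 1.45, 9.14, 5.73, 2.81 and 2.95 CPM in knock-in males 6 to 10 and at 2.14, 2.15, 1.20, 1.13 and 0.927 CPM in 5xFAD males 6 to 10. Knock-in males 7 and 8 were the high animals, and knock-in male 6 lay inside the 5xFAD range (log2 change 1.55, SE 0.48, adjusted p = 0.662). Zbp1 stood at 0.387, 1.25, 2.08, 1.07 and 1.68 CPM in knock-in males and at 0.119, 0.307, 0.261, 0.768 and 0.709 CPM in 5xFAD males. All but knock-in male 6 exceeded every 5xFAD male (log2 change 1.56, SE 0.58, adjusted p = 0.715). In females Zbp1 stood at 0.496, 0.530, 1.56 and 2.25 CPM in the knock-in and at 1.26, 2.16, 0.367, 0.519 and 0.919 CPM in 5xFAD, ranges that overlapped. Mx1, a large GTPase that traps viral nucleocapsids, stood at 0.677, 1.35, 1.15, 0.816 and 1.12 CPM in knock-in males and at 0.119, 0.768, 0.417, 0.716 and 0.382 CPM in 5xFAD males. Its change of 1.07 (SE 0.43, adjusted p = 0.717) rested on levels near 1 CPM and on 2 counts in 5xFAD male 6.

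Effector genes were also higher by their means in knock-in males. All 4 Ifit genes, which bind foreign RNA ends, gave changes above 0, from 0.18 (Ifit1) to 0.53 (Ifit3). Ifit3 stood at 15.2, 22.7, 22.7, 23.2 and 12.3 CPM in knock-in males and at 13, 11.8, 9.07, 14.5 and 17.9 CPM in 5xFAD males. The middle 3 knock-in males were above the 5xFAD range, and knock-in males 6 and 10 were within it (adjusted p = 0.753). Ifit2 stood at 8.12, 14.1, 15.6, 14.3 and 9.83 CPM in knock-in males and at 7.03, 9.26, 9.60, 10.5 and 10.7 CPM in 5xFAD males, with the same pair of knock-in animals inside the 5xFAD range. Stat2 in males stood at 33.8, 27, 32.2, 34.9 and 35.3 CPM in the knock-in and at 31.7, 29.3, 28.3, 31.9 and 26.1 CPM in 5xFAD, groups that overlapped (log2 change 0.15, SE 0.11, adjusted p = 0.839). Irf9 stood at 12.7, 16.6, 19, 18.5 and 19.3 CPM in knock-in males and at 17.9, 18.9, 13.4, 14.4 and 15 CPM in 5xFAD males, also overlapping (0.11, SE 0.17, adjusted p = 0.936). The exception in sign was Ifih1 (-0.02), at 4.59, 5.03, 6.79, 8.93 and 6.31 CPM in knock-in males and 8.16, 6.04, 7.30, 4.76 and 5.78 CPM in 5xFAD males.

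Irf7 stood at 3.53, 3.94, 5.54, 6.94 and 4.48 CPM in knock-in males and at 2.14, 3.53, 1.62, 6.04 and 5.07 CPM in 5xFAD males. The ranges overlapped, and that of the 5xFAD males was the wider (log2 change 0.41, SE 0.37, adjusted p = 0.880). Isg15 stood at 3.48, 3.22, 3.28, 2.60 and 2.70 CPM in knock-in males and at 1.91, 1.74, 1.15, 3.22 and 2.67 CPM in 5xFAD males. The knock-in males were close together, and 5xFAD males 9 and 10 reached their level (0.51, SE 0.34, adjusted p = 0.823). Usp18, the protease that removes Isg15 and damps the receptor, stood at 1.88, 4.46, 3.46, 3.62 and 1.63 CPM in knock-in males and at 2.08, 2.20, 0.834, 2.56 and 2.40 CPM in 5xFAD males, and overlapped likewise (0.58, SE 0.34, adjusted p = 0.789).

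Microglia markers gave changes above 0 in males, as 30 of the 31 response genes did. The summed level of the 10 markers was 733 to 1125 CPM in knock-in males and 578 to 775 in 5xFAD males, and 812 to 1244 in knock-in females and 719 to 902 in 5xFAD females. All 10 gave changes above 0 in each sex, and 0 of 10 passed the test. Markers of the plaque-associated state summed to 316 to 469 CPM in knock-in males and 225 to 307 in 5xFAD males, which did not overlap, and to 324 to 474 in knock-in females and 296 to 374 in 5xFAD females, which did. In males 9 of these 10 were above 0 (median 0.67) and 0 passed, with Tyrobp, a signalling adaptor of Trem2, at 0.81 (SE 0.15, adjusted p = 0.208). In females all 10 were above 0 (median 0.43) and 1 rose, the lysosomal gene Cd68 (0.70, SE 0.19, adjusted p = 0.0314). The part of the plaque-associated markers was not tested. In bulk tissue more microglia and more RNA per microglia cannot be told apart. With the microglia level as a covariate, the fit added after the data were seen, the median change over the 31 genes was -0.15 in males (7 above 0) and -0.49 in females (1 above 0). In that fit the median in males lay on the other side of 0. The markers were higher in the knock-in in each sex, so this covariate moves with genotype, and the fit cannot tell them apart. In females the same fit called 0 of all genes, against 1013 without the covariate.

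**Figure D2:**
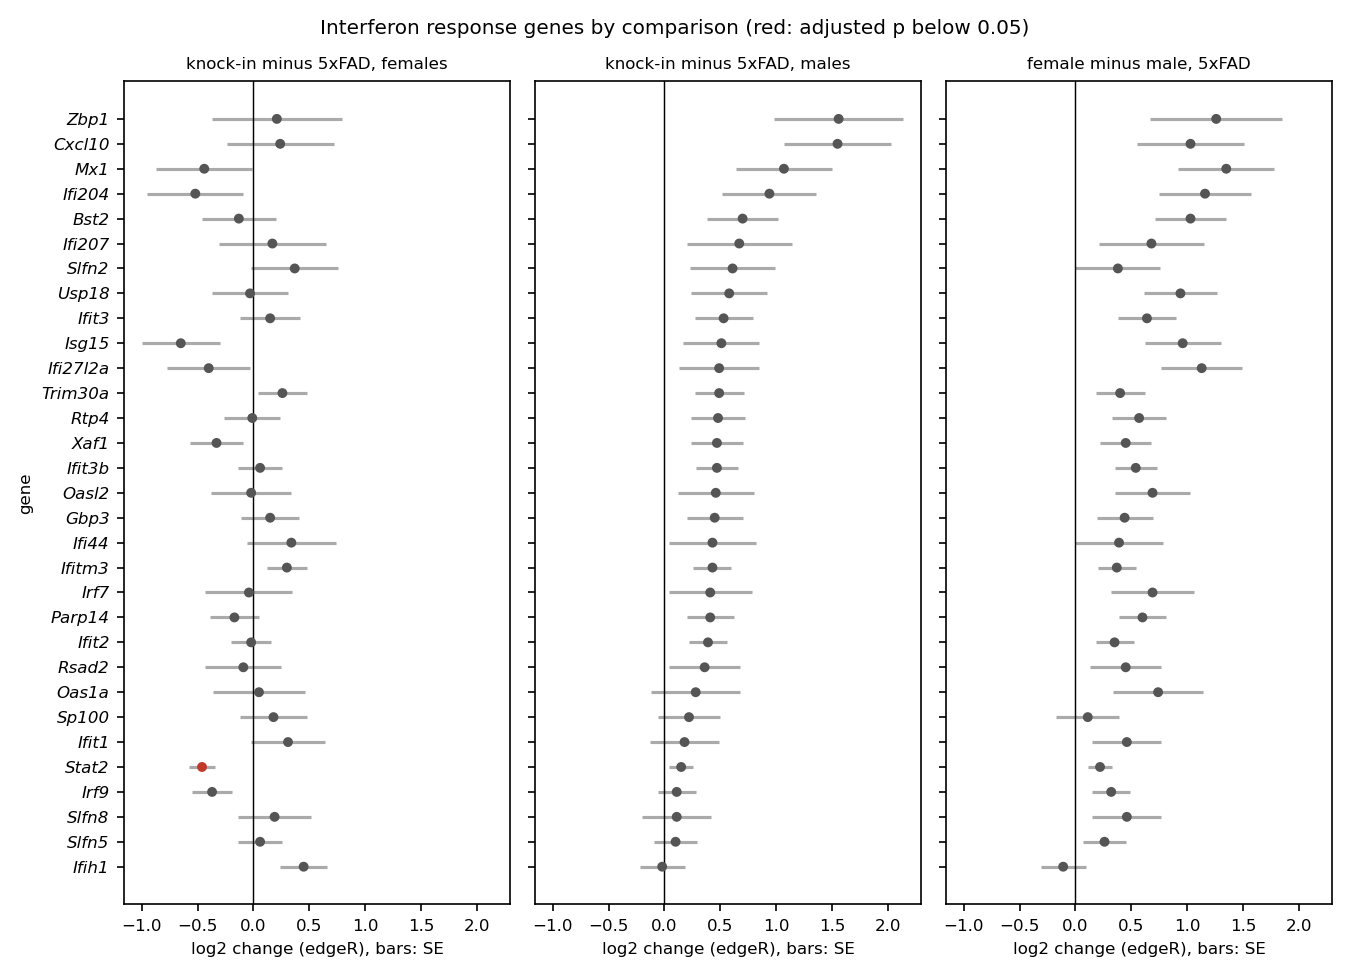
Log2 change of each of the 31 genes in 3 comparisons from the edgeR fit, ordered by the change in males; points are estimates and bars 1 SE on each side. The female genotype panel scatters around 0 with Stat2 the 1 gene past the threshold (-0.46), and the other panels lie to the right of 0 for 30 of the 31 genes; those 2 panels share the 5xFAD males.

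Over both sexes, with sex as a covariate, 28 of the 31 changes were above 0 and none passed. The median was 0.24, beside 0.00 for all genes, and 49.6% of all genes were above 0. Among all genes 4 rose and 0 fell (0.022%), Cd68 among them. In the edgeR fit 3 of the 31 (9.68%) had an unadjusted p under 0.05, as had 11.9% of all genes, and DESeq2 and limma-voom called 0 of the 31. With the microglia level as a covariate the median was -0.36, with 3 of 31 above 0.

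The 3 lowest p over both sexes were those of Ifitm3, Cxcl10 and Trim30a. Ifitm3 stood at 15.4, 16.6, 18.7 and 16.6 CPM in knock-in females and at 11, 14, 16.8, 17.5 and 12.2 CPM in knock-in males. In 5xFAD it stood at 11.1, 20.5, 11.6, 13.7 and 11.4 CPM in females and at 13.3, 10.03, 8.03, 10.2 and 11.6 CPM in males. The single highest library was 5xFAD female 2, the other 5xFAD females lay below all knock-in females, and the groups overlapped (log2 change 0.37, SE 0.13, adjusted p = 0.286). Cxcl10, given above for males, stood in females at 2.28, 3.08, 3.28 and 5.89 CPM in the knock-in and at 2.96, 4.61, 1.63, 1.04 and 5.16 CPM in 5xFAD. Over both sexes its change was 0.92 (SE 0.37, adjusted p = 0.357). Number 5 was the highest female in both groups, and the ranges overlapped. Trim30a, a ubiquitin-ligase family member that restrains signalling from pattern receptors, stood at 5.36, 8.49, 6.55 and 12.4 CPM in knock-in females and at 5.65, 7.58, 7.71, 8.93 and 6.47 CPM in knock-in males. In 5xFAD it stood at 4.82, 8.46, 5.51, 6.53 and 8.79 CPM in females and at 6.19, 5.17, 4.12, 5.32 and 5.13 CPM in males. Knock-in female 5 was the highest library and 5xFAD male 8 the lowest, with overlap in each sex (0.38, SE 0.15, adjusted p = 0.358). The 3 genes below 0 were Stat2 (-0.13), Irf9 (-0.12) and Isg15 (-0.04).

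Among the other abundant members, Bst2 stood at 11.6, 8.49, 19.2 and 18.3 CPM in knock-in females and at 11.8, 11.3, 14, 13.4 and 12.5 CPM in knock-in males. In 5xFAD it stood at 17.2, 21.1, 8.76, 17 and 14.6 CPM in females and at 4.35, 5.58, 4.02, 9.93 and 14.8 CPM in males. Knock-in males were the most even group, and 5xFAD males 6, 7 and 8 were the lowest of all libraries. Oasl2, a relative of the synthetases that make the RNase L activator, stood at 7.89, 10.1, 12.4 and 22.8 CPM in knock-in females and at 6.52, 9.03, 14.3, 19.5 and 8.66 CPM in knock-in males. In 5xFAD it stood at 10.2, 15.7, 6.40, 12.8 and 22.6 CPM in females and at 9.53, 8.44, 5.84, 8.49 and 9.76 CPM in males. The animals high for Irf7 (knock-in female 5, knock-in male 9 and 5xFAD female 5) were also high here, and the 5xFAD males were close together. Slfn5, of the growth-restricting Schlafen family, stood at 10.8, 10.5, 15.3 and 15.3 CPM in knock-in females and at 8.75, 8.93, 12.9, 12.7 and 12.2 CPM in knock-in males. In 5xFAD it stood at 9.96, 14.5, 11.4, 12.8 and 13.6 CPM in females and at 12.2, 7.47, 6.99, 12.5 and 12.8 CPM in males, and no group stood apart. In females, Ifit3 stood at 14.9, 18.1, 27.4 and 31.2 CPM in the knock-in and at 18.2, 21.8, 12, 18.8 and 32.6 CPM in 5xFAD. Ifit2 stood there at 10.7, 10.8, 11.7 and 14.3 CPM and 10.2, 12.4, 10.9, 11.9 and 14.8 CPM, with full overlap for both genes.

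**Figure D3:**
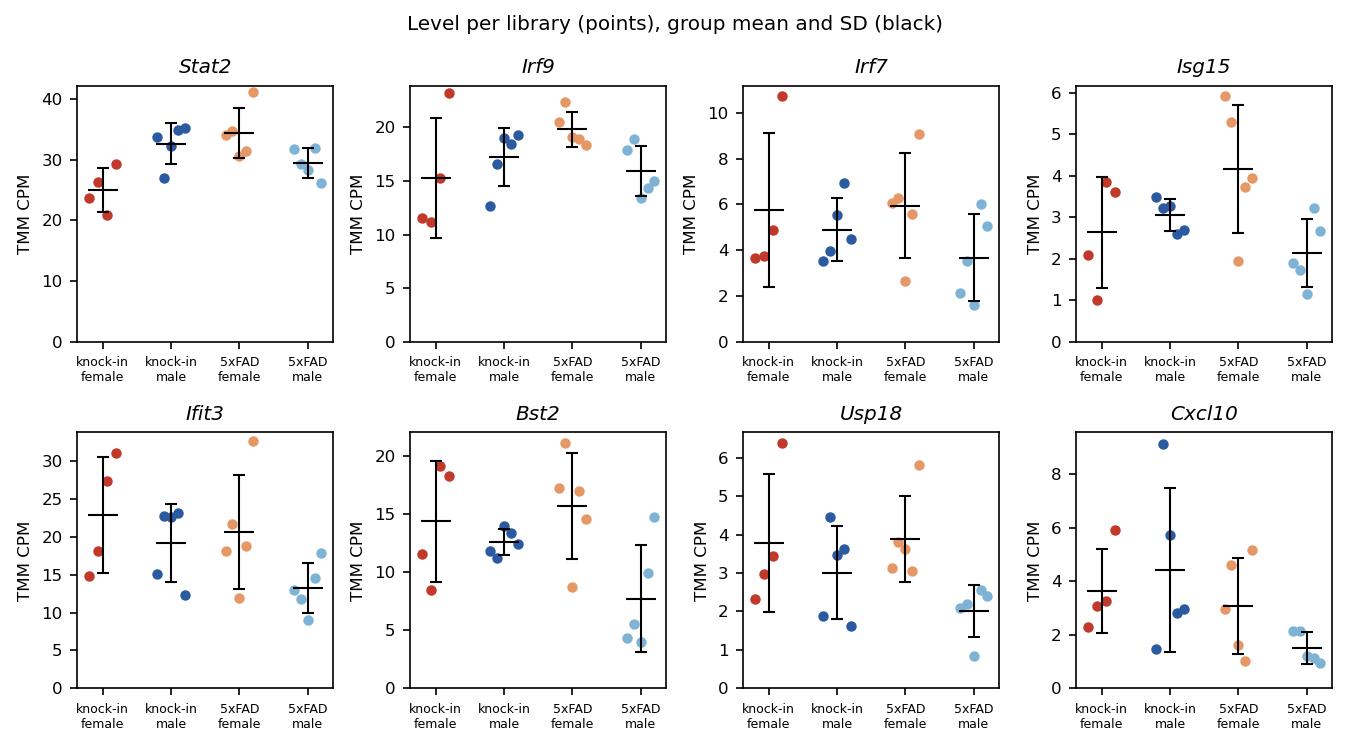
TMM-scaled CPM of 8 of the genes in each library (points), with the mean and SD of each group in black; every axis starts at 0. Only the knock-in female and 5xFAD female Stat2 points and the 5xFAD female and 5xFAD male Usp18 points do not overlap within a genotype or a sex among the genes shown.

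The direct test of whether the genotype change differed between sexes (change in females minus change in males) called 0 of the 31 genes in edgeR and limma-voom and 1 in DESeq2, and 56 of all genes (0.308%) in edgeR. The difference was below 0 for 28 of the 31, with a median of -0.45, beside -0.02 for all genes, of which 48% were above 0. The unadjusted p was under 0.05 for 5 of the 31 (16.1%) and for 17.7% of all genes. Stat2 was nearest to the threshold at -0.61 (SE 0.16, adjusted p = 0.0708). It passed in DESeq2 (-0.59, adjusted p = 0.0231), without knock-in female 5 (-0.70, adjusted p = 0.0437) and without knock-in male 7 (-0.67, adjusted p = 0.0278). With the noncoding RNA level as a covariate the Stat2 difference was -0.28, and the 8 noncoding RNAs had a median difference of -1.78 in this contrast. Mx1 gave -1.51 (SE 0.61, adjusted p = 0.197). In females it stood at 0.894, 0.743, 0.780 and 1.23 CPM in the knock-in and 1.26, 1.20, 0.524, 0.985 and 2.25 CPM in 5xFAD. Ifi204, a DNA-sensing HIN-200 protein, gave -1.46 (SE 0.60, adjusted p = 0.201). It stood at 1.39, 1.64, 1.92 and 3.68 CPM in knock-in and 2.57, 4.04, 1.52, 4.10 and 3.37 CPM in 5xFAD females. In males it stood at 0.918, 2.18, 2.82, 4.49 and 3.06 CPM in the knock-in and 1.55, 2.15, 0.469, 0.921 and 1.91 CPM in 5xFAD. Both genes ran lower in the knock-in among females and higher among males, by means, and the groups overlapped in each sex.

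Between sexes of 5xFAD mice, females had the higher mean for 30 of the 31 genes, with a median log2 change (female minus male) of 0.54 beside 0.01 for all genes, of which 50.9% were above 0. These values share the 5xFAD males with the genotype comparison in males. None of the 31 passed in edgeR, DESeq2 or limma-voom, and 7 of all genes did in edgeR (0.0385%). An unadjusted p under 0.05 was found for 13 of the 31 (41.9%) and for 11.1% of all genes. Here too the genes tended to be high or low in the same libraries, so the counts are not separate observations. Usp18 was the 1 gene of the 31 with every female above every male, 3.12, 3.80, 3.62, 3.06 and 5.82 CPM against 2.08, 2.20, 0.834, 2.56 and 2.40 CPM, as were 1.05% of all genes, and its log2 change was 0.94 (SE 0.33, adjusted p = 0.360). None of the 31 had every female below every male (1.72% of all genes). Bst2 gave 1.03 (SE 0.32), Mx1 1.35 (SE 0.43) and Ifi27l2a 1.13 (SE 0.36), each with adjusted p = 0.350. Ifi27l2a, a small hydrophobic protein, stood at 4.32, 3.60, 1.10, 3.06 and 3.52 CPM in 5xFAD females and at 1.19, 1.07, 0.991, 1.54 and 2.34 CPM in 5xFAD males. 5xFAD female 3 lay among the males for both Bst2 and Ifi27l2a, and the other 4 females lay above all males for Ifi27l2a. Choroid plexus markers were higher in these females by a median of 1.70 and microglia markers by 0.17 on the log2 scale. Each choroid plexus marker overlapped between the sexes and none passed. The lowest adjusted p among them was 0.484 (Kl, log2 change 1.42, SE 0.72, edgeR). With the microglia level as a covariate the median over the 31 genes was 0.32, with 28 above 0. The part of the choroid plexus level was not tested.

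Among knock-in mice, 22 of the 31 changes between sexes were above 0, with a median of 0.14 beside -0.01 for all genes, of which 47.4% were above 0. None passed in edgeR, DESeq2 or limma-voom, 1 of the 31 had an unadjusted p under 0.05 (3.23%, beside 14.4% of all genes), and 9 of all genes were called in edgeR (0.0494%). The lowest p was that of Stat2, with females below males by -0.38 (SE 0.12, adjusted p = 0.120), and knock-in female 5 inside the male range. The 8 noncoding RNAs were lower in these females too, at a summed 1212 to 2419 CPM against 2624 to 7801 in knock-in males, with all 8 below 0 (median -1.34) and 0 passing. With their level as a covariate the Stat2 change was -0.15 (adjusted p = 1). Their summed levels did not overlap between the knock-in sexes, so the fit cannot tell sex and this level apart. Choroid plexus markers summed to 3556 to 11647 CPM in knock-in females and to 33.8 to 3542 CPM in knock-in males. None of these markers passed (lowest adjusted p = 0.332 for Kl, log2 change 1.63, SE 0.75, edgeR), and their part was not tested. Ifit1 stood at 4.12, 7.27, 10.8 and 13.1 CPM in knock-in females and 3.82, 6.33, 6.83, 8.26 and 4.28 CPM in knock-in males (log2 change 0.58, SE 0.33, adjusted p = 0.443). In 5xFAD it stood at 6.46, 7.07, 4.09, 5.24 and 12.8 CPM in females and 6.85, 4.25, 4.02, 6.29 and 4.63 CPM in males. Ifih1 gave 0.36 (SE 0.21, adjusted p = 0.450). Knock-in females 4 and 5 were the high animals for both genes. Ifi27l2a stood at 1.64, 1.27, 2.65 and 3.89 CPM in knock-in females and 2.90, 1.76, 1.57, 2.30 and 1.48 CPM in knock-in males. Isg15 gave -0.21 (SE 0.35, adjusted p = 0.871), with females the lower by their means.

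Other genes of the pathway were taken from 4 lists of 117 tested genes, and none passed in any of the 6 comparisons in edgeR. In the genotype comparison over both sexes, 6 of 9 receptor and kinase genes, 16 of 19 sensors and adaptors, 13 of 17 inhibitors and nucleic acid clearance genes and 56 of 72 further interferon-stimulated genes were above 0, with medians of 0.11, 0.12, 0.12 and 0.15. Among receptors, Ifnar2 gave 0.29 (SE 0.10, adjusted p = 0.278) and Il10rb, a subunit of the type III interferon receptor, 0.32 (SE 0.12, adjusted p = 0.329). Among sensors and adaptors, Unc93b1, which carries Toll-like receptors to endosomes, gave 0.44 (SE 0.12, adjusted p = 0.195) and Irf8 0.37 (SE 0.14, adjusted p = 0.333). Rnaset2b, a lysosomal ribonuclease, gave 0.44 (SE 0.10, adjusted p = 0.151) and Nlrx1 0.36 (SE 0.12, adjusted p = 0.269). Tor3a, a torsin ATPase, and Lgals9, a secreted galectin, gave 0.44 (SE 0.11, adjusted p = 0.181) and 0.36 (SE 0.13, adjusted p = 0.305). In males the 72 further interferon-stimulated genes had a median of 0.37, with 62 above 0, and in females 0.08, with 42 above 0. Of 13 ligand genes sought by name, the interferons themselves, 0 were found in the deposited count table, so their levels are not known here.

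The levels of the response genes were also set against that of Irf7 between animals of a group, and no relation passed the test. With the group means removed, the Pearson r with Irf7 over 19 libraries was above 0 for 30 of 30 genes, from 0.10 (Ifih1) to 0.80 (Oasl2), with a median of 0.61, and for 50.6% of all other genes. It exceeded 0.5 for 20 of the 30, as it did for 2.01% of the other 18203 genes. The genes were chosen with earlier results of these data known, so this contrast is not independent of the choice. In the permutation test of Irf7 within groups (100000 resamples, two-sided), 0 of all genes passed after Benjamini-Hochberg adjustment over 18203 relations. In each other setting tried, where only relations with r above 0 were counted, 0 passed. Among the 30, the lowest p values were those of Oasl2 (r = 0.80, p = 5e-05, adjusted p = 0.425; rho = 0.777, p = 0.00039) and Oas1a (r = 0.71, p = 7e-05, adjusted p = 0.425; rho = 0.763, p = 0.00016). At the smallest p that these permutations can give (1e-05), 4 genes would have had to share it to pass. The 2 libraries farthest from the Irf7 median were knock-in female 5 and 5xFAD female 3. Without them the median was 0.48, all 30 stayed above 0 (0.03 to 0.73), and 13 exceeded 0.5, as 3.35% of all other genes then did.

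After Oasl2, the highest r values among the 30 were those of Ifit3 (r = 0.78; rho = 0.739), Bst2 (0.78; rho = 0.770), Zbp1 (0.72; rho = 0.758), Ifi27l2a (0.71; rho = 0.689), Oas1a (0.71; rho = 0.763) and Slfn2 (0.70; rho = 0.725). Stat2 (0.44) and Irf9 (0.48), the partners that bind the element, had lower r values, and Xaf1 (0.29), Ifi207 (0.29), Ifitm3 (0.28), Cxcl10 (0.28) and Ifih1 (0.10) the lowest. The Stat2 value was -0.01 on the authors' normalized counts and 0.44 with library size alone. Among the 40 genes with the highest r, 11 were of the 31. The others included Ifi211 (0.79), Psmb8 (0.70) and Psmb9 (0.69), the last 2 of them subunits of the immunoproteasome, Pld4 (0.78) and Siglech (0.76), expressed by microglia and by plasmacytoid dendritic cells, and the astrocyte filament gene Gfap (0.72). Within each of the 19 libraries, Irf7 and the other genes were measured in the same tissue piece and at the same depth. Knock-in female 5, the library with the highest Irf7 level, also had the largest total (25200966 counts). Among marker lists, the 5 tested markers of plasmacytoid dendritic cells, which include Siglech and Bst2 (itself one of the 31), had a median r of 0.56, with 3 above 0.5. The 10 markers of microglia had 0.43 and the 10 of plaque-associated microglia 0.37, with 4 above 0.5 in each, while astrocytes had -0.25, neurons -0.14, choroid plexus 0.05 and the noncoding RNAs 0.01. The 72 further interferon-stimulated genes had a median of 0.32. The part of these cell types in the relations was not tested.

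**Figure D4:**
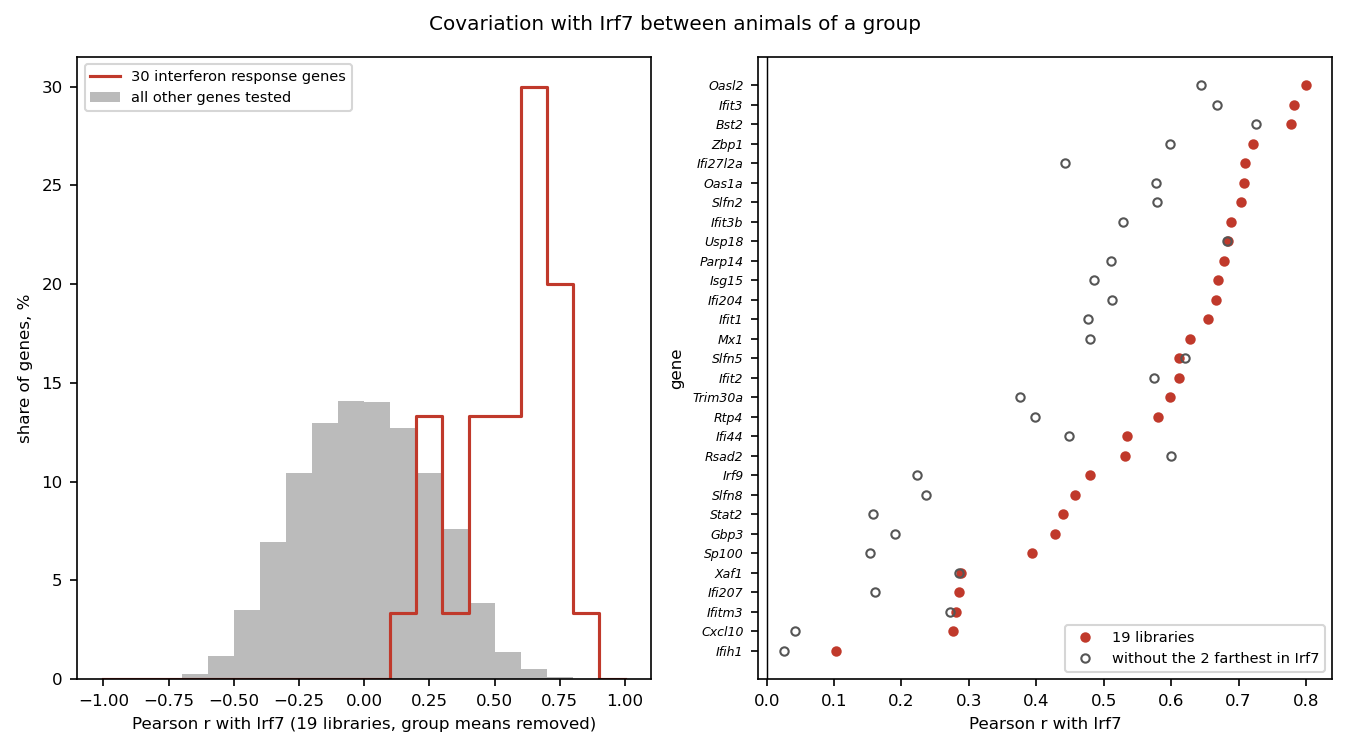
Pearson r of each gene's log2 CPM with that of Irf7 over 19 libraries, group means removed: on the left the distribution for 30 response genes (red) and all other genes tested (grey), in % of genes; on the right each response gene with all libraries (filled) and without the 2 libraries farthest from the Irf7 median (open). The red distribution lies to the right of the grey one, which centres on 0, and most open points lie left of the filled ones.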

How the data were processed

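Bulk RNA of 19 hippocampi was sequenced on NovaSeq and HiSeq instruments as paired-end reads, per the labels' protocols, and the instrument of each library is not given. FastQC, Salmon, DESeq2, Seurat and the build mm39 are named, without versions, in the submitters' processing notes. The deposited estimated counts per gene were whole numbers as the authors gave them and were used unchanged. The authors' deposited normalized counts, a signal whose normalization is not given in the sources used here, served as an alternative, and the authors' deposited variance-stabilized log2 values were not used. Library preparation by strand is not given, so reads of overlapping antisense genes cannot be told apart.

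Genes were named from the reference's table of IDs (20023 of 20655 matched). Genes passing filterByExpr (minimum count 10, the 4 groups), 18204 in all, entered edgeR 4.0.16's quasi-likelihood test (R 4.3.3, TMM scaling, robust), adjusted by Benjamini-Hochberg over all of them at 0.05, in a fit of genotype and sex or of 4 group means. The correlation used log2 CPM with a prior count of 2. Exon lengths came from GENCODE and promoters from RefSeq. Alternatives were DESeq2 1.42.0, limma-voom (limma 3.58.1), other scalings and filters, the authors' normalized counts on log2(value + 1), the noncoding RNA level as a covariate, the replicate block and leaving out each library. Both scripts that test many genes were run on simulated data. For the genotype test, changes were planted only in genes with high counts and read only in the comparison over both sexes. That run therefore says nothing about genes with low counts or about the comparison in females. The members and lists were chosen with earlier results of these data known. Values in every library are given for genes past the threshold, the 8 with the highest mean CPM, Irf7, Stat2, Irf9, Isg15, Ifit3 and Cxcl10, and the 3 lowest p of each comparison. Of pathway genes the 2 with the lowest p per list in the genotype effect are named. Usp18, and the genes named from the 40 with the highest r with Irf7, were chosen after their values were seen. The labels name separate animals, so p-values measure the spread between animals, as far as they were reared apart.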

Additional observations from a re-analysis of the deposited data

Results flagged for a closer look

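In 3 of 124 sets of values (31 genes in 4 groups of 4 or 5 libraries) a library lay far from the others of its group by Dixon's ratio at the 95% level. Chance gives about 1 in 20, or 6.2 of 124. Usp18 in 5xFAD female 5 was at 5.82 CPM, with the next highest female of its group at 3.80. Usp18 in 5xFAD male 8 was at 0.834 CPM, with the next lowest male of its group at 2.08. Ifitm3 in 5xFAD female 2 was at 20.5 CPM, with the next highest female of its group at 13.7.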

How the results depend on the processing

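The call of Stat2 in females held in DESeq2 (adjusted p = 0.00751), limma-voom, both other scalings, both other filters, the authors' normalized counts (-0.75) and the fit of the 2 groups alone. It was lost with the noncoding RNA level as a covariate, with the microglia level as a covariate (added after seeing the data) and with the replicate block (-0.50, adjusted p = 0.0981), each leaving 0 of the 31 called. Same-numbered libraries were not paired by the labels or the data (r of deviations -0.20 to 0.12 over 9 pairs, 2 above 0.1; 2 of 18 libraries correlated best with their own number), and the block left 0 genes called in each genotype contrast. Leaving out 1 library gave 0 to 2 of the 31 called in females and a Stat2 change of -0.54 to -0.34, and 0 to 1 called in the interaction, where DESeq2 and library size alone (-0.74, adjusted p = 0.0318) called 1.

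Reversals occurred over both sexes. Stat2 was 0.04 with the noncoding RNA covariate, and Ifitm3 was -0.04 and Trim30a -0.09 with the microglia covariate. The median over the 31 genes moved by more than the SD between animals (0.36) with that covariate alone, to -0.36 over both sexes, -0.49 in females and -0.15 in males. Leaving out each library kept the median at 0.17 to 0.33 over both sexes, 0.36 to 0.53 in males, -0.67 to -0.20 for the interaction and 0.42 to 0.66 between the sexes of 5xFAD, but gave -0.17 to 0.21 in females and -0.09 to 0.31 between knock-in sexes. The median r with Irf7 was 0.48 without the 2 farthest libraries and 0.57 to 0.66 leaving out 1.

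Counts over all genes depended on the setting. Over both sexes (4) they were 107 in DESeq2, 1 with library size alone, 1 with the authors' normalized counts, 2 with the noncoding RNA covariate, 0 with the microglia covariate and 1 to 127 leaving out 1 library. In females (1013) they were 1810 in DESeq2, 1599 in the 2 groups alone, 0 with either covariate and 0 to 1334 leaving out 1. In males (0) they were 19 in DESeq2, 1 with library size alone and 0 to 2 leaving out 1. For the interaction (56) they were 766 in DESeq2, 402 with library size alone, 95 with the microglia covariate, 0 in limma-voom, with DESeq2 size factors, without a filter, with the authors' normalized counts and with the noncoding RNA covariate, and 0 to 489 leaving out 1. Between the sexes they were 16 in DESeq2 for 5xFAD (7), and for the knock-in (9) 510 in DESeq2, 24 with the authors' normalized counts and 8 to 340 leaving out 1. The cause of these differences was not tested. At 2 counts, the lowest levels of Zbp1 and Mx1 carry wide counting error.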
